A study of Mus musculus with 238 samples.

Results

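Diet restriction was examined in the anterior hippocampus of aged mice, with 9 of the 238 libraries of the series. The members were chosen by their labels: every anterior hippocampus library of the diet experiment, 5 from restricted mice (aDR) and 4 from mice fed freely (AL, ad libitum). Both groups were female C57BL/6JN mice of 19 months, and each library came from a different mouse. The aDR mice were numbers 61, 62, 64, 65 and 67, and the AL mice were numbers 63, 66, 68 and 69. No genetic change and no other agent was given in either group per the labels. When restriction began, how deep it was and the hour of sampling are not given in the sources used here. The labels name separate mice but no separate experiments, so p-values measure the spread between these mice.

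The hippocampus holds the dentate gyrus and the CA fields, and it serves memory of places and events. It carries dense corticosteroid receptors, so the adrenal hormones that follow stress, hunger and the daily cycle act directly on its neurons and glia. Restricted feeding is known to shift daily rhythms, to raise glucocorticoid exposure and to lower body temperature in mice. The molecular clock is a feedback loop in which the activators Arntl and Clock switch on their own repressors, among them the period and cryptochrome genes and Ciart, through the DNA element called the E-box. Nuclear receptors of the REV-ERB and ROR families close a second loop on Arntl and Nfil3 through another element, the RORE. The glucocorticoid receptor Nr3c1, bound by hormone, acts through palindromic glucocorticoid elements at genes such as Fkbp5, Tsc22d3 and Sgk1.

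No gene passed the test in this tissue. Of the 13380 genes tested with edgeR's quasi-likelihood test, 0 (0%) had an adjusted p under 0.05 after Benjamini-Hochberg adjustment. At an unadjusted p under 0.05 there were 595 genes (4.45%), of which 252 (1.88%) were higher and 343 (2.56%) lower in aDR. The groups did not overlap for 263 genes (1.97%), with all aDR mice above all AL mice for 124 (0.927%) and below them for 139 (1.04%). The median log2 change over all genes tested was 0.002. Other fits of the same counts called a few genes. DESeq2 called 5 (Ciart, Cirbp, Map3k6, Hnrnph1 and Plin4), and limma voom with sample quality weights called 2 (Ciart and Cirbp). Without aDR mouse 64, edgeR called the same 2 genes, with an adjusted p of 0.027 for each. Values below are therefore given as levels and differences, and no gene is called changed.

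The levels named here are CPM, counts per M (mega) counts of a library, scaled by the TMM library factors. A summed level of a marker list uses the plain totals instead, which lay between 4.07 and 10.4 M counts. Mitochondrially encoded genes took 1.91 to 2.72% of the counts. The summed level of 18 hippocampal neuron genes had a higher median in anterior hippocampus (3700 CPM) than in any other region. Visual cortex came next at 2710 CPM, ahead of posterior hippocampus. The sum thus goes with the label of the anterior sample but does not set hippocampus as a whole apart from cortex. Lct, a marker of the dorsal hippocampus, lay at 20.4 to 86.9 CPM, against a median of 9.62 CPM in posterior hippocampus, while the sum of 7 dorsal markers had medians of 400 and 490 CPM in the anterior and posterior samples.

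A pair of aDR libraries stood apart. Mouse 67 had the lowest hippocampal neuron sum (2220 CPM, against 3400 to 4330 in the other mice) and the highest sum of meningeal fibroblast markers (2310 CPM against 380 to 1220). It also had the highest sum of midbrain and pretectum markers (146 CPM against 10.3 to 74.7). That list was chosen after these libraries had been seen, so its high sum in mouse 67 is a description and no independent sign of midbrain tissue. Mouse 64 had a choroid plexus sum of 1100 CPM, against 19.8 to 30.7 elsewhere. Ttr, the transthyretin gene and the defining choroid plexus transcript, lay at 922 CPM in mouse 64 and at 0.155 CPM or less in the other libraries. The striatal sum of mouse 64 was also the highest (310 CPM against 138 to 159). Myelin genes were high in mice 64, 66 and 67 (16900, 15800 and 17000 CPM), so in both diets, against 6360 to 11000 in the rest. Markers of other tissue were not confined to mice 64 and 67. The thalamus and habenula sum was 428 CPM in mouse 67 and 373 and 430 CPM in AL mice 68 and 69, against 107 to 281 in the rest. The midbrain and pretectum sums of AL mice 66, 68 and 69 (46.4, 44.5 and 74.7 CPM) also lay above those of the aDR mice other than 67 (10.6 to 25.1). Every list below was chosen with earlier results of these data known, so its counts are descriptions. The libraries of mice 64 and 67 were kept, and the lists below are given with some of the counts that leaving them out moved. Leaving out both was chosen after the data had been seen. A count that is not given may have moved as well. The background for those counts moved as well: at an unadjusted p under 0.05, 1.42% of all genes tested were higher and 2.01% lower without mouse 64, 5.04% and 5% without mouse 67, and 3.51% and 4.31% without both.

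**Figure D1:**
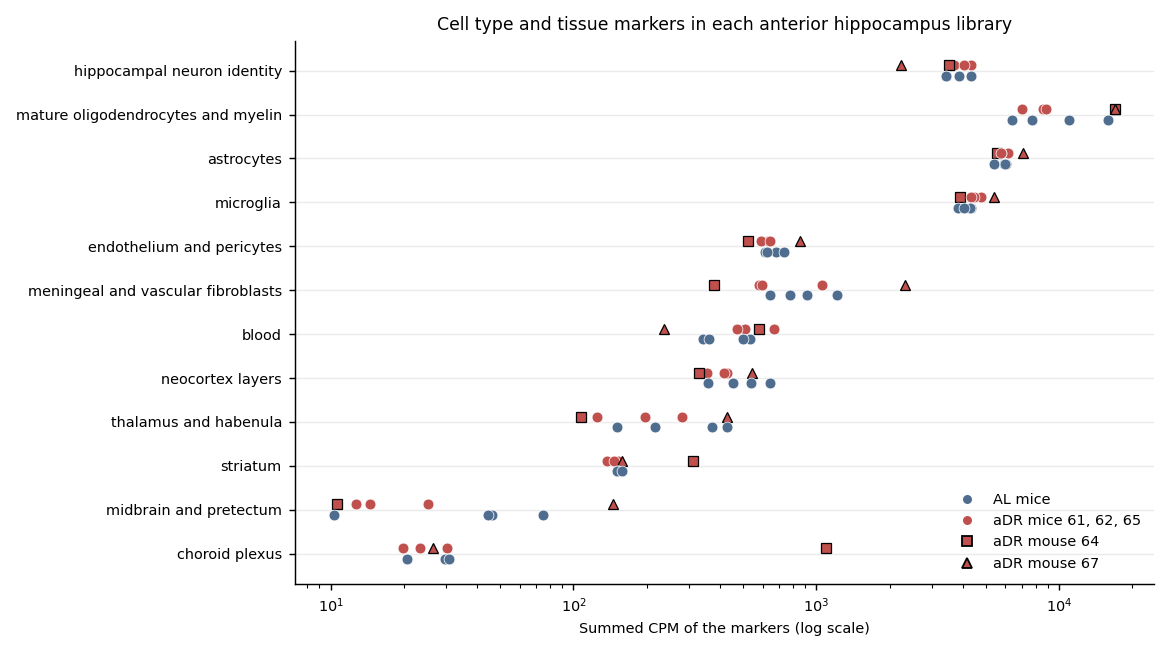
Summed level of the markers of each cell type or tissue (CPM, log axis) in each of the 9 libraries, AL mice in blue and aDR mice in red, with mice 64 (squares) and 67 (triangles) marked. Mouse 64 lies at 1100 CPM for choroid plexus and mouse 67 at 146 CPM for midbrain and pretectum, apart from the other libraries, while the astrocyte and microglia sums of the diets overlap. The midbrain and pretectum list was chosen after these libraries had been seen.

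The clock list held the gene with the smallest p of all. Ciart, a repressor of the CLOCK and ARNTL activators, lay at 37.6, 45.7, 35.0, 42.6 and 44.9 CPM in aDR mice 61, 62, 64, 65 and 67, and at 23.5, 24.3, 22.6 and 19.4 CPM in AL mice 63, 66, 68 and 69. All aDR mice were above all AL mice, and neither outlying library decided this. The log2 difference was 0.88 ± 0.11 (SE), 1.84-fold (41.1 ± 4.68 against 22.5 ± 2.14 CPM, SD, n = 5 and 4). The edgeR adjusted p was 0.0835 over all genes, and it ran from 3.02e-07 to 0.619 over 19 alternative settings, 6 of which called it. With each mouse left out in turn the difference stayed between 0.81 and 0.93.

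Of the 21 clock genes, all tested, 4 were higher and 2 lower at an unadjusted p under 0.05 (19% and 9.52% of the list, against 1.88% and 2.56% of all genes). The higher ones were Ciart, Dbp, Per1 and Cry1, which are repressors or output genes switched on through E-boxes, and the lower ones were Arntl, the activator, and Nfil3, a repressor of D-box genes. The list's median log2 change was -0.005, so its members lay on both sides of 0. Without mouse 64 alone the counts were 4 higher and 2 lower (19% and 9.52%, against 1.42% and 2.01% of all genes then tested). Without mouse 67 alone they were 5 and 3 (23.8% and 14.3%, against 5.04% and 5%). Without both, a setting chosen after the data had been seen, 9 of the 21 were higher and 3 lower (42.9% and 14.3%, against 3.51% and 4.31%).

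Dbp, a transcription factor that binds D-boxes, had 114, 149, 103, 127 and 139 CPM in the aDR mice, in order of mouse number, and 91.8, 99.9, 88.4 and 100 CPM in the AL mice. The ranges did not overlap, though mouse 64 came close to the highest AL mouse. The log2 difference was 0.41 ± 0.108 (edgeR adjusted p = 0.9998, the value of all genes below in the same test other than Cirbp and Map3k6). Per1, a period gene, showed 29.8, 30.4, 29.6, 31.2 and 26.1 CPM against 23.9, 22.6, 20.7 and 25.5. Here too every aDR mouse was above every AL mouse, with mouse 67 the nearest to them, and the log2 difference was 0.34 ± 0.0926. Cry1, a cryptochrome, had 35.3, 38.6, 33.8, 45.4 and 45.6 CPM against 26.5, 30.6, 32.7 and 35.7, and its groups overlapped at AL mouse 69.

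Arntl went the other way. It lay at 37.9, 35.9, 25.9, 39.4 and 25.4 CPM in the aDR mice and at 43.8, 43.0, 44.3 and 42.5 CPM in the AL mice, whose values were close together. All aDR mice were lower, and the outlying mice 64 and 67 were the lowest of them, with a log2 difference of -0.39 ± 0.136. Without both of them it was -0.197. Nfil3 had 12.2, 13.5, 12.7, 12.6 and 15.0 CPM against 16.1, 14.1, 17.8 and 17.0, and overlapped at AL mouse 66. The other clock genes gave no such separation. Clock (-0.16), Npas2 (-0.31) and Rorb (-0.34) lay below 0, Per2 (0.24), Per3 (0.16) and Cry2 (0.14) above it, and the Rev-erb genes Nr1d1 (0.05) and Nr1d2 (-0.04) near it.

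The promoters of Ciart, Per1, Cry1, Arntl and Nfil3 carry elements of the loop, and short stretches of them are printed to show where they lie. They come from the RefSeq promoter table of build GRCm38.p6, which runs from 250 bases before to 50 bases after each start site. They were chosen after the values had been seen. Each is written 5′ to 3′ along its gene, and capitals mark an E-box (CACGTG), a D-box (TTATGNAA) or a RORE (TAGGTCA, or TGACCTA on the other strand).
Ciart, chr3:95882247-95882364, minus strand: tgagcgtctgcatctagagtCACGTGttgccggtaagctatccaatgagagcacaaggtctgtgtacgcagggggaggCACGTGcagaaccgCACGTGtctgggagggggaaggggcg
Per1, chr11:69098763-69098952, plus strand: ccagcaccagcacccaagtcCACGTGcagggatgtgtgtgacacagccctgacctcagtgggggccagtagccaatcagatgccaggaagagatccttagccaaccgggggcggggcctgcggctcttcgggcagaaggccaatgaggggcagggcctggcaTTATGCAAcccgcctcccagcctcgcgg
Cry1, chr10:85185089-85185134, minus strand: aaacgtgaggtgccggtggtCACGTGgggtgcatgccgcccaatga
Arntl, chr7:113207531-113207557, plus strand: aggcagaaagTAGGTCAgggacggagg
Nfil3, chr13:52981025-52981071, minus strand: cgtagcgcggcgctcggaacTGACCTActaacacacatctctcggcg
Ciart held 3 E-boxes, which began 116, 58 and 44 bases before its start. Per1 held an E-box 166 bases before and a D-box 24 bases before its start, and Cry1 an E-box 60 bases before. In Arntl the RORE began 30 bases after the start, and in Nfil3 it lay 12 bases before. The table matched 18 of the 21 clock genes with 24 promoters. An E-box was in 6 of these (25%) and in 7.15% of all 32851 promoters, searched on both strands. A RORE was in 2 of the 24 (8.33%), those of Arntl and Nfil3, and in 2.61% of all. A D-box was in 2 (8.33%), those of Per1 and Per3, and in 3.38% of all. The variant E-box CACGTT was in 4 (16.7%), at Cry1, Cry2, Nr1d1 and Rorb, and in 4.68% of all. The search found none of these elements in the promoter of Dbp, the other clock gene at an unadjusted p under 0.05. These matches are descriptions of letters, and binding was not measured.

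The cold-inducible RNA-binding proteins held the second smallest p. Cirbp, which binds RNA and is made when temperature drops mildly, lay at 217, 204, 151, 177 and 203 CPM in the aDR mice and at 122, 118, 117 and 118 CPM in the AL mice. The AL mice were nearly equal and every aDR mouse was above them, mouse 64 by the least. The log2 difference was 0.68 ± 0.104, 1.61-fold, with an edgeR adjusted p of 0.253 that ran from 7.89e-06 to 1 over 19 alternative settings, 6 of which called it. Rbm3, its relative in sequence and in response to cold, had 145, 141, 108, 126 and 113 CPM against 97.8, 81.4, 103 and 92.7. Its groups did not overlap either, and the log2 difference was 0.43 ± 0.108. Of the 5 listed genes 4 were tested. The remaining 2 were Rtn3, a membrane protein that the list's name does not describe, and Srsf5, a splicing factor. They differed by 0.12 and -0.12. At an unadjusted p under 0.05, 2 of the 4 tested were higher (50%, against 1.88% of all genes), and the count was the same without mice 64 and 67 (against 3.51%). The list was chosen with earlier results of these data known, so this share is a description.

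Genes that respond to glucocorticoids were mostly higher in the restricted mice. Of the 22 tested, 20 had a log2 change above 0, against 50.7% of all genes, and the median was 0.37. At an unadjusted p under 0.05, 10 (45.5%) were higher and 0 lower, against 1.88% and 2.56% of all genes. For 6 of them the groups did not overlap, all higher (0.927% of all genes): Plin4, Map3k6, Hif3a, Sgk1, Per1 and Tsc22d3. Per1 stands in the clock list as well. This list, like the others, was chosen with earlier results of these data known, so its count is a description.

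Mouse 67 moved with this list. Its summed level was 2760 CPM there, against 1550 to 1860 in the other aDR mice and 1430 to 1580 in the AL mice, and this is also the library with the high midbrain and meningeal sums. Without mouse 67, 9 of the 22 (40.9%) were higher at an unadjusted p under 0.05, beside 5.04% of all genes, and the median was 0.25. Without mice 64 and 67, 10 of 22 (45.5%) were, beside 3.51% of all genes, and the median was 0.242. The part of the neighbouring tissue in these levels was not tested further.

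Map3k6, a kinase of stress signalling, lay at 8.4, 5.92, 6.13, 7.25 and 8.31 CPM in the aDR mice and at 2.26, 2.67, 4.02 and 2.96 CPM in the AL mice. Both ranges were narrow and apart, with mouse 67 at the level of mouse 61. The log2 difference was 1.26 ± 0.21 (edgeR adjusted p = 0.387, from 0.000477 to 1 over 18 alternative settings, 3 of which called it). With the anterior and posterior counts of each mouse summed it was 0.63.

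Plin4, a coat protein of lipid droplets, had the greatest difference of the tested genes, at 2.13 ± 0.507. Its levels were 9.78, 10.2, 18.1, 5.72 and 31.8 CPM in the aDR mice and 1.66, 5.59, 2.94 and 3.70 CPM in the AL mice. The groups did not overlap, but aDR mouse 65 and AL mouse 66 were almost equal and mouse 67 was far above the rest. The difference was 1.70 without mouse 67 and 1.33 without mice 64 and 67. Hif3a, an inhibitory member of the hypoxia-inducible factors, lay at 3.67, 3.88, 3.74, 3.31 and 6.88 CPM against 1.35, 0.972, 1.86 and 2.31. Apart from mouse 67 the aDR mice were close together, all above the AL mice, and the log2 difference was 1.28 ± 0.306.

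Sgk1, a kinase that regulates ion channels, had 198, 149, 205, 164 and 348 CPM in aDR and 101, 110, 124 and 139 CPM in AL. All aDR mice were higher, mouse 67 by the most, and the log2 difference of 0.84 ± 0.222 was 0.595 without mouse 67 and 0.523 without both outlying mice. Tsc22d3, an anti-inflammatory leucine zipper protein, showed 147, 146, 122, 120 and 269 CPM against 97.8, 114, 98.6 and 111. Its difference of 0.61 ± 0.216 was 0.344 without mouse 67, more than 1.5 times smaller. Fkbp5, a chaperone that restrains the glucocorticoid receptor, had 107, 94.9, 87.1, 106 and 84.5 CPM against 79.2, 65.1, 81.4 and 85.3. It overlapped at mouse 67, which was the lowest aDR mouse here and not the highest, and the difference was 0.30 ± 0.104.

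Sult1a1, a sulfotransferase (0.96), the phagocytic receptor Mertk (0.37) and the phosphatase Dusp1 (0.37) were the other listed genes at an unadjusted p under 0.05, and the groups overlapped for each. Zbtb16, a zinc finger factor, gave no such difference, with 67.8, 78.8, 59.6, 71.2 and 66.2 CPM in aDR and 68.2, 63.0, 80.9 and 69.2 in AL. Its log2 difference was -0.04 ± 0.0988. Pdk4 (-0.13) was the other member below 0. Klf9 (0.10), Ddit4 (0.09) and Errfi1 (0.12) were near 0, and the metallothioneins Mt1 (0.33) and Mt2 (0.31) had an unadjusted p above 0.05.

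Neither corticosteroid receptor separated the groups. The glucocorticoid receptor Nr3c1 had 104, 121, 115, 116 and 92.6 CPM against 132, 128, 122 and 115, a log2 difference of -0.18 ± 0.0889. The mineralocorticoid receptor Nr3c2, which is dense in hippocampal neurons, had 113, 137, 145, 150 and 48.4 CPM against 146, 133, 141 and 134. Mouse 67 was far below all others, and the difference of -0.22 ± 0.249 was -0.024 without it. Of the 8 tested genes for receptors and steroid enzymes, 0 had an unadjusted p under 0.05 in either direction, and the median was 0.10. Without mice 64 and 67, 1 of the 8 was higher (12.5%, against 3.51% of all genes).

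Promoters were searched for the glucocorticoid element, an inverted repeat that reads alike on both strands, with free bases between and within its arms. The windows of Map3k6 and Sgk1 are shown because these genes were among the 6 that separated the groups, and capitals mark the element.
Map3k6, chr4:133240617-133240669, plus strand: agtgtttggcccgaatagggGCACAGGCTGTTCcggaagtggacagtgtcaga
Sgk1, chr10:21993682-21993734, plus strand: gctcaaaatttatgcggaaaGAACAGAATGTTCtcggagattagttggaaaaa
The element began 181 bases before the start of Map3k6 and 188 bases before that of Sgk1. The table matched 21 of the 23 listed genes. The element was in 5 of their 33 promoters (15.2%, at Fam107a, Map3k6, Mt1 and Sgk1) and in 0.475% of all 32851 promoters. The search found none in these windows of Plin4, Hif3a, Per1 and Tsc22d3, the other 4 genes that separated the groups. The list was made of genes that respond to glucocorticoids, so its share of the element says nothing about diet. These matches too are descriptions of letters, and binding was not measured.

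**Figure D2:**
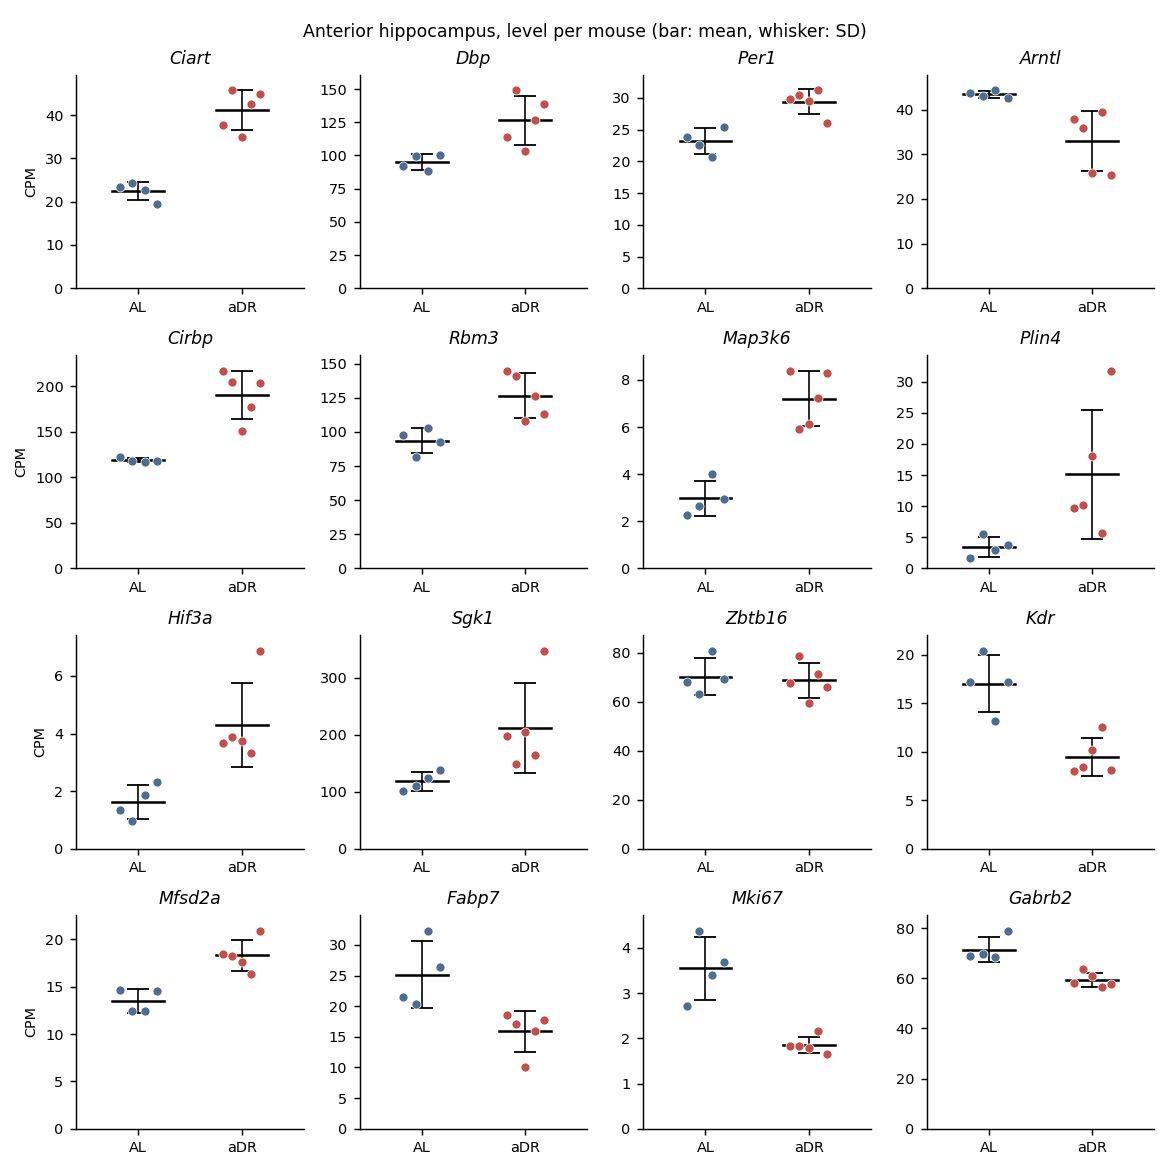
Level of 16 genes in each mouse (CPM, axes from 0), AL in blue and aDR in red, with the group mean as a bar and the SD as a whisker. The aDR and AL mice lie apart for 15 of the 16, among them Ciart at 35.0 to 45.7 against 19.4 to 24.3 CPM, and mixed for Zbtb16. The 16 genes were chosen with results of these data known, and the groups lay apart for 1.97% of all genes tested.

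Among the 12 higher genes with the smallest p, 6 are not in the clock, cold or glucocorticoid lists. For each of them every aDR mouse was above every AL mouse, as for 0.927% of all genes. They were picked by their p between these groups, which favours groups that lie apart, so this is a description. Klf15, a transcription factor of fasting metabolism, lay at 46.1, 48.0, 48.6, 45.7 and 64.3 CPM against 35.2, 40.1, 30.2 and 33.2 (0.54 ± 0.122). Inmt, an amine methyltransferase, lay at 3.89 to 8.56 CPM against 2.67 to 3.70 (1.03 ± 0.242). The remaining ones were Fmo2, a flavin monooxygenase (1.53 ± 0.375), Kirrel2, an adhesion protein (0.92 ± 0.224), and, with smaller values, Gpcpd1 (0.31) and Kpna2 (0.30), a phosphodiesterase of choline lipids and a nuclear import factor.

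Among the lower genes, Kdr had the smallest p. It encodes the main VEGF receptor of endothelial cells and lay at 7.95, 8.37, 10.2, 12.5 and 8.07 CPM in the aDR mice and at 17.2, 20.4, 13.2 and 17.2 CPM in the AL mice. The ranges were close at aDR mouse 65 and AL mouse 68 and did not overlap. The log2 difference was -0.83 ± 0.172 (9.40 ± 1.94 against 17.0 ± 2.96 CPM, SD, n = 5 and 4), and it stayed between -0.96 and -0.74 with each mouse left out.

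Of 21 endothelial and pericyte genes, 14 lay below 0 and the median was -0.11. At an unadjusted p under 0.05, 4 were lower (19% against 2.56% of all genes) and 1 higher (4.76% against 1.88%). The lower ones were Kdr, the tight junction gene Cldn5 (-0.47), and the pericyte genes Kcnj8 (-0.43) and Rgs5 (-0.32), whose groups overlapped except for Kdr. The higher one was Mfsd2a, the transporter of lysolipids at the blood-brain barrier, at 18.5, 18.2, 17.6, 16.3 and 20.9 CPM against 14.7, 12.4, 12.4 and 14.5. Every aDR mouse exceeded every AL mouse, and the difference was 0.42 ± 0.112. Pecam1 (-0.11), Flt1 (-0.20), Slc2a1 (0.26) and Pdgfrb (0.02) gave an unadjusted p above 0.05. The summed level of the list overlapped (522 to 855 CPM in aDR, 616 to 737 in AL). Without mouse 67, 7 of 20 tested members were lower (35%, beside 5% of all genes). Without mouse 64, 3 of 20 were lower (15%, beside 2.01%) and 3 higher (15%, beside 1.42%). In bulk tissue fewer cells of a type and less RNA per cell cannot be told apart.

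The adult neurogenesis list, for the dentate gyrus progenitors and their young neurons, had a median of -0.17, and 11 of its 15 tested genes lay below 0. At an unadjusted p under 0.05, 2 were lower (13.3%, against 2.56% of all genes) and 0 higher (against 1.88%). Without mouse 67, and also without both mice 64 and 67, 3 were lower (20%, against 5% and 4.31%) and 1 higher (6.67%, against 5.04% and 3.51%). Mki67, the proliferation marker, lay at 1.83, 1.84, 1.79, 2.16 and 1.66 CPM in aDR and at 2.71, 4.38, 3.40 and 3.70 CPM in AL. The groups were apart with a log2 difference of -0.90 ± 0.213, at a low level. With the posterior counts added the difference was -0.19. Fabp7, a fatty acid carrier of radial glia-like progenitors and astrocytes, lay at 18.5, 17.1, 10, 16.0 and 17.8 CPM against 21.5, 20.4, 32.3 and 26.4. It was lower in all aDR mice, by 0.68 on the log2 scale (-0.68 ± 0.187). Ccnd2, the cyclin D2 gene of dividing progenitors, lay the other way, at 160, 117, 156, 122 and 74.5 CPM in aDR and 106, 85.1, 108 and 92.8 in AL. Its groups overlapped, with mouse 67 the lowest of all 9 mice and the other aDR mice above every AL mouse. The difference of 0.36 ± 0.189 had an unadjusted p above 0.05, and it was 0.50 without mouse 67 and 0.44 without both mice, with a p under 0.05 in each. Dcx, the marker of young neurons, had 10.5, 7.35, 8.07, 9.16 and 14.0 CPM against 8.88, 12.2, 6.35 and 9.71, a difference of 0.09 ± 0.222 whose sign turned with single mice. Sox11 (-0.28) and Neurod1 (-0.05) gave an unadjusted p above 0.05, and Eomes, Top2a and Cdk1 were too low to be tested.

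Astrocyte genes lay on both sides. Of 20, 2 were higher (10%, against 1.88% of all genes) and 1 lower (5%, against 2.56%) at an unadjusted p under 0.05, and the median was 0.095. Etnppl, a phospholyase of phosphoethanolamine, had 42.0, 34.5, 39.8, 28.8 and 160 CPM in aDR and 15.8, 27.5, 24.6 and 27.5 in AL. The groups did not overlap, but mouse 67 was far above the others, and the log2 difference of 1.33 ± 0.489 was 0.60 without it. Serpina3n, a protease inhibitor of reactive astrocytes, was 0.49 ± 0.21, with its highest level in mouse 64 and a difference of 0.27 without that mouse, which left 1 higher and 1 lower gene at that p (5% each, against 1.42% and 2.01%). Gfap (0.08) and Aqp4 (-0.30) had an unadjusted p above 0.05.

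Microglial genes showed 1 of 18 lower at an unadjusted p under 0.05 (5.56%, against 2.56% of all genes) and 0 higher. The count was 2 lower and 1 higher without mouse 64 (11.1% and 5.56%, against 2.01% and 1.42%), 1 lower and 2 higher without mouse 67 (5.56% and 11.1%, against 5% and 5.04%), and 2 in each direction without both (11.1%, against 4.31% and 3.51%). Fcrls, a receptor typical of resting microglia, lay at 21.7, 21.8, 23.8, 20.7 and 22.5 CPM against 28.4, 27.7, 27.5 and 26.6. Both groups were tight and apart, with a difference of -0.32 ± 0.0795. The other homeostatic genes P2ry12 (0.11), Tmem119 (0.01) and Cx3cr1 (0.00) were near 0. C4b, a complement gene, had 92.9, 95.3, 203, 108 and 153 CPM against 87.9, 156, 77.7 and 108. It was high in the mice with high myelin sums in both diets, and its difference of 0.29 ± 0.263 was 0.07 without mouse 64.

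Neuronal receptor genes leaned low by small amounts. Of the 12 GABA-A receptor subunits, 11 lay below 0, the median was -0.14, and 3 were lower at an unadjusted p under 0.05 (25% against 2.56% of all genes). Gabrb2, a beta subunit, lay at 58.2, 63.5, 60.8, 56.5 and 57.7 CPM in aDR and at 68.8, 69.5, 68.3 and 78.9 in AL, so that all aDR mice were lower (-0.27 ± 0.0743). Gabra2, an alpha subunit, overlapped between the groups (-0.34). Without mouse 67 the list had 4 lower (33.3%, against 5%) and 1 higher (8.33%, against 5.04%) at that p, with 8 of 12 below 0. Without both mice it had 2 lower (16.7%, against 4.31%) and 1 higher (8.33%, against 3.51%). Of 22 glutamate receptor genes 18 lay below 0 and 2 were lower at that p (9.09%, against 2.56%), the kainate receptor genes Grik2 (-0.34) and Grik3 (-0.43). Without mouse 64, 0 of the 22 were lower or higher at that p (against 2.01% and 1.42%). Without mouse 67 there were 6 lower (27.3%, against 5%) and 2 higher (9.09%, against 5.04%). Without both mice there were 4 lower (18.2%, against 4.31%) and 1 higher (4.55%, against 3.51%), and 11 of the 22 lay below 0. The hippocampal neuron sum of mouse 67 was low, as given above, and its part in these levels was not tested further.

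Immediate early genes, which follow neuronal activity, had 2 of 23 higher at an unadjusted p under 0.05 (8.7%, against 1.88% of all genes) and 0 lower (against 2.56%). Egr2 had 2.90, 9.59, 13.3, 7.89 and 2.61 CPM against 3.91, 4.86, 3.40 and 2.5, so 3 aDR mice were high and 2 lay within the AL range (1.05 ± 0.454). Dusp1, also in the glucocorticoid list, was the second. Without mouse 64, 0 of the 23 were higher or lower at that p (against 1.42% and 2.01%), and without both mice 1 was higher (4.35%, against 3.51%). Fos (0.28), Arc (0.27) and Npas4 (0.49) gave an unadjusted p above 0.05. Bdnf, the neurotrophin, had 85.1, 101, 84.9, 85.2 and 54.1 CPM against 100, 70.0, 120 and 81.8, and its groups overlapped (-0.18 ± 0.182).

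Metabolic and housekeeping lists held few genes at an unadjusted p under 0.05. Insulin and IGF signalling had 2 of 28, both lower: Igfbp5, an IGF-binding protein (-0.44 ± 0.106, with 42.4 to 56.3 against 59.7 to 79.7 CPM), and the kinase Akt2 (-0.28). That was 7.14% of the list, against 2.56% of all genes, and without both mice 64 and 67 it had 2 lower and 2 higher (7.14% each, against 4.31% and 3.51%). Fasting and fatty acid oxidation had 1 of 21 higher, Plin4 (4.76%, against 1.88%), while Cpt1a (0.02) and Ppargc1a (0.01) lay near 0. Without both mice, 2 were higher and 1 lower (9.52% and 4.76%, against 3.51% and 4.31%). Presynaptic release genes had 15 of 17 above 0 and 1 lower at that p, Syp (-0.29; 5.88%, against 2.56%). Without mouse 67 they had 5 higher (29.4%, against 5.04%) and 0 lower, and without both mice 3 higher and 1 lower (17.6% and 5.88%, against 3.51% and 4.31%). The respiratory chain had 33 of 37 above 0 with a median of 0.057, and 0 at that p. Without mouse 67, 21 of 37 were above 0. Cytosolic ribosome genes had 32 of 38 below 0 with a median of -0.05 and 0 at that p, and 17 of 38 below 0 without mouse 64. Without the other of these mice each lean was greater. The respiratory chain had 36 of 37 above 0 without mouse 64, and the ribosome list 34 of 38 below 0 without mouse 67. The lean of both lists thus depended on single libraries.

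**Figure D3:**
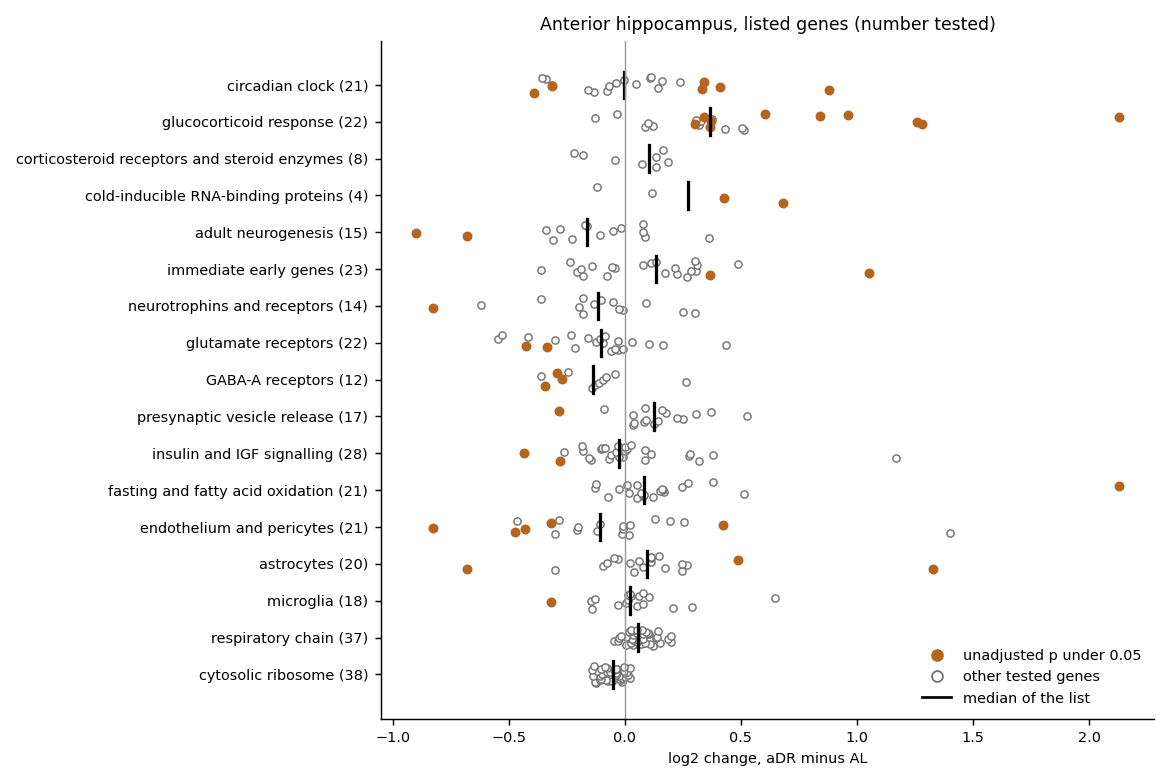
Log2 change (aDR minus AL) of each tested gene in 17 lists, filled where the unadjusted edgeR p was under 0.05, with the list median as a black bar. The glucocorticoid response list has its median at 0.37 with 10 filled genes to the right of 0, while the clock list has filled genes on both sides. The lists were chosen with earlier results of these data known.

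The remaining lower genes with the smallest p belong to no list above. They too were picked by their p, which favours groups that lie apart (lower without overlap for 1.04% of all genes). Hnrnph1, a splicing factor, lay at 113, 123, 114, 109 and 110 CPM in aDR and at 140, 138, 142 and 140 in AL, narrow ranges that did not overlap (-0.30 ± 0.0647). Rngtt, the mRNA capping enzyme, lay at 29.2 to 33.9 against 39.4 to 43.0 CPM (-0.35 ± 0.0764). Uba6, a ubiquitin-activating enzyme (-0.53), Wsb1, an adaptor of ubiquitin ligases (-0.32), and Ipo7, a nuclear import receptor (-0.37), were lower in every aDR mouse than in every AL mouse. The same held for the protocadherin Pcdhb8 (-0.66) and the dynein heavy chain gene Dnah1 (-0.77). Sema6d, a semaphorin (-0.50), overlapped by a narrow margin. Counts of Pcdhb8 can be uncertain, since the protocadherins of its cluster are similar in sequence.

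Whether the diet difference itself differed between the anterior and the posterior hippocampus was tested within each mouse, on the anterior minus the posterior log2 CPM, in the 9 mice that had both. Of 13691 genes, limma called 0 (0%), and 409 (2.99%) had an unadjusted p under 0.05. Of the genes above, Mki67 was among the 10 with the smallest p. Its anterior minus posterior difference was -0.377, 1.037, -0.301, 0.040 and 0.428 in aDR mice 61, 62, 64, 65 and 67 and 1.265, 1.938, 1.194 and 1.325 in AL mice 63, 66, 68 and 69. The AL mice had more Mki67 in the anterior sample, by a mean of 1.43, and the aDR mice about as much in both (mean 0.17). The difference between diets was -1.26 ± 0.309, with an adjusted p of 1 by limma. Mki67 was too low for the test within posterior hippocampus alone, so these values rest on few counts.

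The genes with the smallest p in that test were Lsm11, Bcl6, Rspo1, Zfp72 and Map3k8. Lsm11, of the machinery that processes histone mRNA, was higher in the posterior sample in all 4 AL mice (mean -0.91) and higher in the anterior sample in all 5 aDR mice (mean 0.37). Bcl6, a repressor, was on the anterior side in both diets, by a mean of 0.76 in AL and 0.13 in aDR. Rspo1, a Wnt enhancer that also marks a layer of neocortex, had means of 1.23 in AL and 0.12 in aDR. None of the 5 overlapped between diets in this within-mouse value, but they were picked by their p for it, which favours such separation. Ciart differed between diets by 0.40 ± 0.19 more in the anterior than in the posterior sample and Kdr by -0.56 ± 0.198, both with an adjusted p of 1 by limma. Cirbp (-0.05), Per1 (0.03) and Plin4 (0.04) had nearly the same diet difference in both.

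The same test against the mean of the 11 other brain regions that were sampled in all 9 mice called 0 of 15303 genes (0%), with 356 (2.33%) at an unadjusted p under 0.05. Cenpn, a centromere protein, had the smallest p. Relative to the other regions its log2 level was -1.363, -1.221, -1.061, -0.936 and -1.080 in the aDR mice and -0.243, 0.171, 0.086 and -0.189 in the AL mice. The groups were far apart for this within-mouse value, by -1.09 ± 0.138, and the adjusted p by limma was 0.289, from 0.184 to 1 over 14 alternative settings. Cenpn was too low for the test within anterior hippocampus alone.

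Zbtb16 had the second smallest p there. Its level in anterior hippocampus exceeded the mean of the other regions by 0.623, 0.942, 0.788, 0.906 and 0.544 on the log2 scale in the aDR mice and by 1.516, 1.313, 1.523 and 1.221 in the AL mice. So it was a gene of high anterior hippocampal level in both diets, and the excess was smaller in every aDR mouse than in every AL mouse. The difference was -0.63 ± 0.125 (adjusted p = 0.9996 by limma). In the single regions, which come from the same mice, its diet difference ran from 0.134 in visual cortex to 1.273 in corpus callosum, beside -0.04 in anterior hippocampus, and liver had 55.0 CPM in the restricted (labelled DR there) against 17.3 CPM in the AL mice. Rbm38, an RNA-binding target of p53, followed, with -0.32 here and 0.081 to 0.701 in the other 14 regions (difference -0.68 ± 0.136). Sh2d4a (-1.09) and Tns4 (1.43), an adaptor and a focal adhesion protein, completed the 5. Both were too low for the test within anterior hippocampus alone, and they passed its count filter in only 1 and 3 of the 14 other brain regions, so their values rest on few counts.

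**Figure D4:**
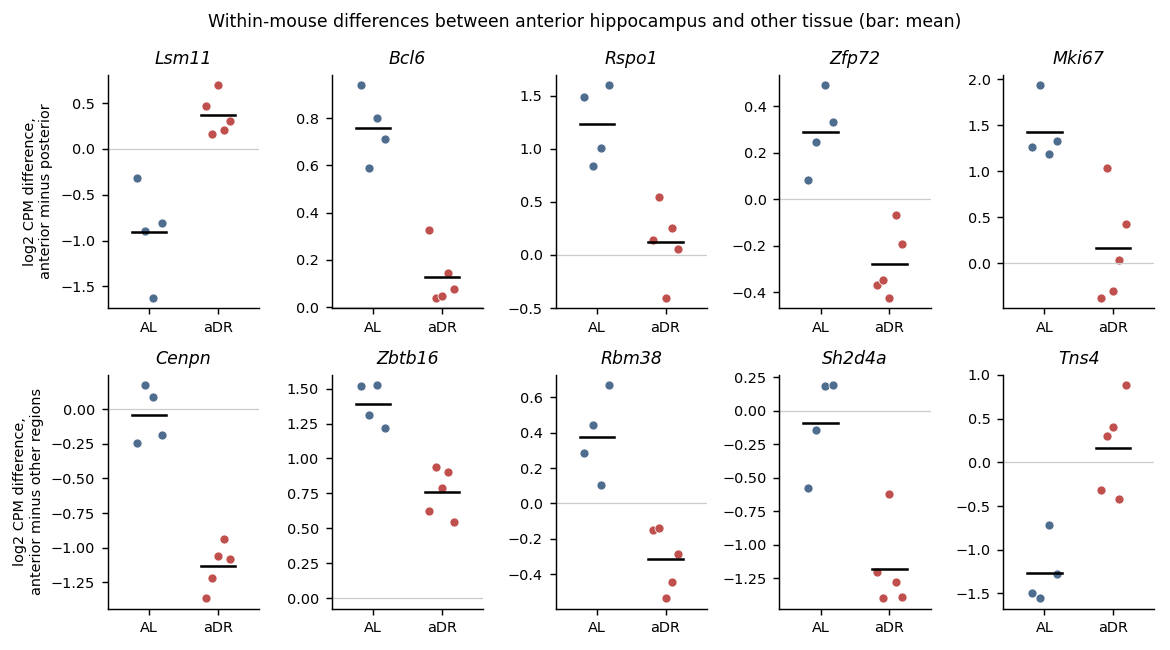
Log2 CPM in anterior hippocampus minus posterior hippocampus (upper panels) or minus the mean of 11 other brain regions (lower panels), 1 point per mouse, AL in blue and aDR in red, with the group mean as a bar. For Zbtb16 the AL mice lie at 1.221 to 1.523 and the aDR mice at 0.544 to 0.942.

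Side by side with the other brain regions of the same mice, the anterior hippocampus was within the range for most of these genes. The diet difference of Ciart was 0.88 here and 0.313 to 1.23 in the other 14 regions. Cirbp was 0.68 here and 0.249 to 0.956 there, and Plin4 2.13 and 1.018 to 2.931. Rbm3 (0.43, against 0.396 to 0.92) and Fkbp5 (0.30, against 0.252 to 1.118) were second lowest of the 15 regions. Map3k6 (1.26, next 1.226 in olfactory bulb) and Klf15 (0.54, next 0.499 in hypothalamus) had their greatest difference here. Hnrnph1, Uba6, Wsb1, Sema6d and Ipo7 had their lowest value here, and of these Hnrnph1 and Uba6 are plotted. Caudate putamen came next for Hnrnph1 (-0.296 here, -0.269 there), Sema6d (-0.499, -0.429) and Uba6 (-0.527, -0.521). Thalamus came next for Wsb1 (-0.317, -0.311) and Ipo7 (-0.366, -0.36). For Uba6, Wsb1 and Ipo7 the next region was thus nearly level with anterior hippocampus. Pcdhb8 and Dnah1 were lowest here too, with pons next (-0.342 and -0.547). So was Mki67, with corpus callosum next (-0.325) of the 5 other regions where it was tested. Map3k6, Klf15 and these lower genes were picked by their small p in anterior hippocampus, which favours an extreme place here. The within-mouse test gave Map3k6 0.58 ± 0.157 and Hnrnph1 -0.17 ± 0.0815 against the 11 regions, with an adjusted p of 0.9996 by limma for both. These orders are descriptions of 9 mice.

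**Figure D5:**
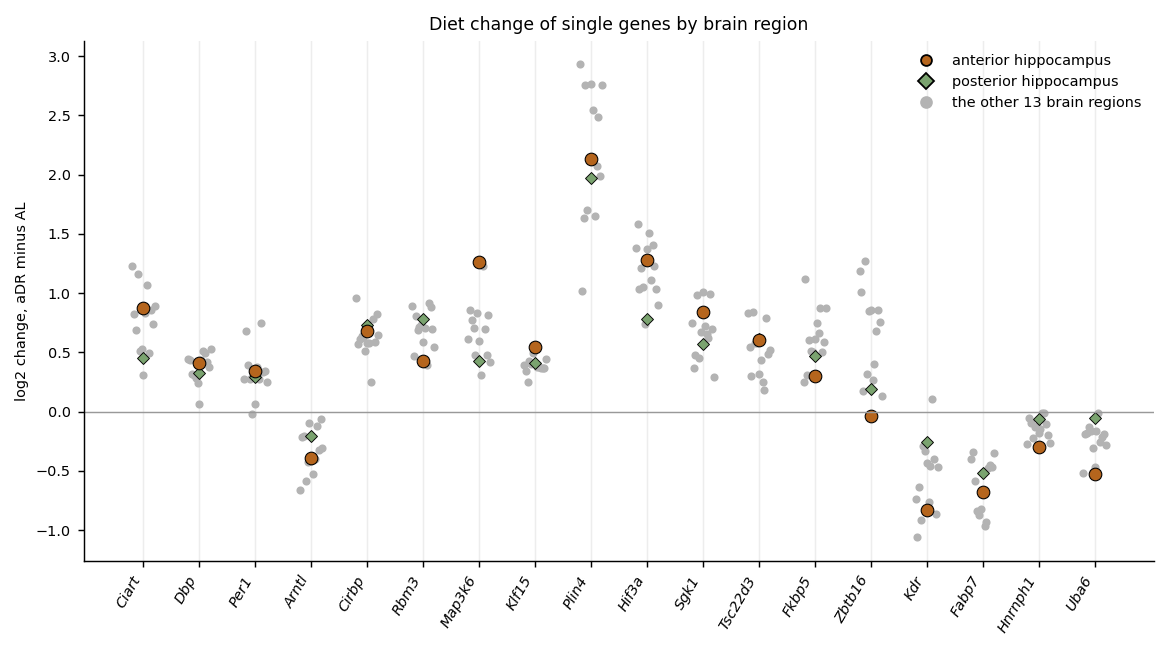
Log2 change (aDR minus AL) of 18 genes in anterior hippocampus (large circles), posterior hippocampus (diamonds) and the other 13 brain regions (small grey circles), each region fitted alone. Anterior hippocampus lies lowest for Zbtb16 (-0.04), Hnrnph1 and Uba6 and highest for Map3k6 (1.26) and Klf15. For Uba6 it is nearly level with caudate putamen. Apart from Zbtb16, these genes were picked by a small p in anterior hippocampus.

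In the plasma experiment, on other and male mice, the anterior hippocampus had 3 mice given plasma of young mice and 4 given saline, with 0 of 13709 genes (0%) called by edgeR and 976 (7.12%) at an unadjusted p under 0.05. The difference of plasma from saline was -0.40 ± 0.182 for Ciart, -0.32 ± 0.153 for Cirbp, -0.24 ± 0.391 for Plin4 and 0.52 ± 0.299 for Map3k6. It was 0.78 ± 0.37 for Sgk1 and 0.44 ± 0.213 for Zbtb16. These values stand beside the diet values, and no test joins the experiments.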

How the data were processed

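RNA of each sample was isolated with RNeasy columns, turned into full-length cDNA by Smart-Seq2 and made into unstranded Nextera XT libraries, per the labels' protocols. The authors deposited raw read counts per gene, 21076 genes in 238 libraries, and 0 columns were left unused. Trim Galore 0.3.7, STAR 2.5.3a, DESeq2 and build GRCm38 are named per the submitters' processing notes, and the counting program and annotation are not given in the sources used here. Without strand or molecular identifiers, overlapping, antisense or near-identical genes are uncertain, and depth covers counting error only.

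From these counts, genes were kept by filterByExpr (minimum count 10, minimum total 15), TMM-normalised and tested with edgeR 4.0.16 (quasi-likelihood, R 4.3.3) on the 9 libraries alone, at a Benjamini-Hochberg adjusted p under 0.05. Within-mouse differences of log2 CPM (prior count 2) were tested with limma 3.58.1 (trend). DESeq2 1.42.0, voom and other settings were alternatives. Replicates were compared for duplicates: chi-square divided by its degrees of freedom had a minimum of 3.83 over 16 pairs (median 10), so each library counted once. The mouse number marks the same animal across regions, and none pairs aDR with AL; deviations of anterior and posterior libraries of a mouse correlated at a mean of 0.124 (-0.0371 between other mice of a diet). Scripts were tested on simulated counts.

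Named genes were the 12 higher and 12 lower with the smallest p, up to 4 of each list with the smallest p, 12 genes fixed by name, the 5 with the smallest p in each within-mouse test, and the extremes of libraries that stood apart. Further list members are named to show a list's spread, after their values had been seen. Members, lists and tests were chosen with earlier results of these data known, the midbrain and pretectum list after these libraries had been seen. Of the listed symbols, 4 have no entry in the table. A few listed genes are counted in their lists and not reported here by name.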

Additional observations from a re-analysis of the deposited data

Results flagged for a closer look

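In 142 groups of 4 or 5 mice (58 genes, 12 gene lists and the library total, in each diet), the highest or lowest mouse was set against the rest by its gap over the group's range. It stood out in 14. Chance gives about 1 in 20 groups, here 7.1, but the genes and lists were chosen with values of these libraries known and share the same 9 mice, so the counts are not set against each other.

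Mouse 67 was the highest aDR mouse for Etnppl (160 CPM against 28.8 to 42.0), Hif3a (6.88 against 3.31 to 3.88), Sgk1 (348 against 149 to 205), Tsc22d3 (269 against 120 to 147) and Klf15 (64.3 against 45.7 to 48.6). It was also the highest in the summed glucocorticoid response list (2760 CPM against 1550 to 1860). Mouse 64 was the highest aDR mouse in the choroid plexus list (1100 CPM against 19.8 to 30.2) and the striatum list (310 against 138 to 158).

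The other gaps were small in size. Kpna2 was highest in aDR mouse 62 (36.1 CPM against 32.5 to 33.5) and Akt2 in aDR mouse 65 (80.4 against 68.8 to 71.4). AL mouse 69 was highest for Pcdhb8 (13.4 CPM against 10.4 to 10.7) and Gabrb2 (78.9 against 68.3 to 69.5). AL mouse 68 had the lowest astrocyte sum (5370 CPM against 5930 to 6040) and AL mouse 63 the lowest choroid plexus sum (20.6 against 29.5 to 30.7).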

How the results depend on the processing

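The count of called genes in anterior hippocampus was 0 with RLE size factors, without or with a stricter count filter, with robust empirical Bayes and with anterior and posterior counts summed. It was 5 by DESeq2, 2 by voom with quality weights, 3 with all brain regions in one fit without a replicate block, 3 in voom with the mouse as a replicate block, 2 without aDR mice 64 and 67 (chosen after seeing the data), and 0 to 2 with each mouse left out. The count at an unadjusted p under 0.05 was 990 with quality weights, 1049 without mice 64 and 67, and 404 to 1336 with single mice left out (1336 without mouse 67), and the cause was not tested. Both within-mouse tests called 0 throughout, the edgeR interactions with and without a replicate block included. Their counts at an unadjusted p under 0.05 were 309 to 680 (posterior) and 292 to 824 (other regions) with single mice left out, and 874 for the latter without mice 64 and 67. The sign turned for Zbtb16 (0.0116 with quality weights, 0.0737 summed, 0.0402 without mice 64 and 67, -0.0876 to 0.039 with single mice left out), Dcx (-0.0435 summed, -0.0086 without mice 64 and 67, -0.0569 to 0.2182 with single mice left out), C4b (-0.1092 without both mice) and Bdnf (0.0123 summed). Summing the hippocampal samples moved 21 of 58 named genes by over 1.5 times, and leaving out mice 64 and 67 moved 14. The 9 libraries of 4.07 to 10.4 M counts limit what genes of a few CPM can show.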
